A study of Mus musculus with 2 samples.

Results

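The genes of cholesterol synthesis, sterol sensing, cholesterol export and neuronal cholesterol removal were followed across the cell classes of the mouse hippocampus. The 28 genes were chosen by symbol from the 32285 genes in the count matrices, and all 28 were found. They comprised 18 synthesis enzymes, 5 genes of sterol sensing, 4 genes of transport and export and 1 gene of neuronal removal. Nuclei came from the hippocampus of C57BL/6J mice aged 6 weeks. Both groups had received an adeno-associated virus (AAV) into both lateral ventricles on the day of birth. The AAV-TAU vector encoded the full-length 2N4R isoform of human tau, without mutation. The AAV-STOP vector held the human MAPT transcript interrupted by an early stop codon, so that tau is not translated from it. Each group was 1 single-nucleus RNA library from the pooled hippocampi of 3 mice, so each group gave 1 value per gene and class, and no test was possible. The promoter of the vector and the share of nuclei that took it up were not given in the sources used here, and the gene list held no human MAPT. In such pools a difference between groups and a difference between sets of mice cannot be told apart.

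Cholesterol does not cross from blood to brain in useful amounts, so brain cells build it from acetyl-CoA. Hmgcs1 and the enzymes after it make mevalonate and isoprenoids, Fdft1 joins isoprenoids to squalene, and the late enzymes convert squalene through lanosterol to cholesterol. The rate of synthesis follows membrane sterol: when sterol is low, SCAP escorts the transcription factor SREBP2 (Srebf2) out of the endoplasmic reticulum, and when it is high, INSIG1 and INSIG2 hold the pair back. Oxysterols act through the liver X receptor LXR-beta (Nr1h2), which raises the exporters Abca1 and Abcg1 and the SREBP1 gene Srebf1. In the postnatal brain astrocytes make cholesterol that they pass to neurons on apolipoprotein particles, oligodendrocytes make it for myelin, and neurons dispose of the excess through the hydroxylase encoded by Cyp46a1.

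Promoter sequence was read from RefSeq (GRCm38.p6) for the 250 bases before each start. Of the members, 23 matched with 31 promoters, while Fdps, Fdft1, Sqle, Stard4 and Abcg1 did not match. The motifs CCAAT (a box bound by NF-Y, which works beside SREBP), GGGCGG (a GC box bound by Sp1) and TCACNCCAC (letters of the sterol regulatory element) were searched on both strands and do not overlap one another in these letters. CCAAT was present in a promoter of 14 of the 15 matched synthesis enzyme genes and of 5 of the 8 other matched members, against 37.5% of 27025 genes overall. Per promoter, it was present in 77.8% of the 18 enzyme promoters, 46.2% of the 13 others and 33.8% of all 32851. The GC box was present for 14 of 15 enzyme genes and 7 of the 8 other members, against 35.4% of all genes. The sterol regulatory letters were present for Hmgcs1 alone among members, against 1.05% of all promoters. A match describes these letters in this window and is not a mapped binding site. The promoters of Hmgcs1, Idi1, Msmo1 and Insig1 are printed as examples that hold the CCAAT box, chosen with the levels described below seen. Whether the box bears on any difference in level was not tested. In these promoters CCAAT or its reverse ATTGG is in capitals, and in Hmgcs1 also the sterol regulatory letters. They lie at chr13:119690101-119690350 on the plus strand (Hmgcs1), chr13:8885356-8885605 on the plus strand (Idi1), chr8:64733579-64733828 on the minus strand (Msmo1) and chr5:28071162-28071411 on the plus strand (Insig1).
Hmgcs1: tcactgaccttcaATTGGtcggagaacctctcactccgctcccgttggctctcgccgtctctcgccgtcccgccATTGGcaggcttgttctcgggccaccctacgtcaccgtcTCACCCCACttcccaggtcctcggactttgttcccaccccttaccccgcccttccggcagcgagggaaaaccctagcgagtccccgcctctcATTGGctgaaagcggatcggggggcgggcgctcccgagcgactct
Idi1: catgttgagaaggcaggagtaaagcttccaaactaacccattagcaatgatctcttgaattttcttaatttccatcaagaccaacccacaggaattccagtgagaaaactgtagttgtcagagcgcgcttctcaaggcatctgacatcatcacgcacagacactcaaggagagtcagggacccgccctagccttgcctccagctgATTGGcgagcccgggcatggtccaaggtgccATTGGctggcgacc
Msmo1: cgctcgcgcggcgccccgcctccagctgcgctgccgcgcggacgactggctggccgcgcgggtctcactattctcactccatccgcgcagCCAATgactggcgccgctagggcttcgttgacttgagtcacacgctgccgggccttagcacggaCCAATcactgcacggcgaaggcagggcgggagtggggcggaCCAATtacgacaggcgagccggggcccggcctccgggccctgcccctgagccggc
Insig1: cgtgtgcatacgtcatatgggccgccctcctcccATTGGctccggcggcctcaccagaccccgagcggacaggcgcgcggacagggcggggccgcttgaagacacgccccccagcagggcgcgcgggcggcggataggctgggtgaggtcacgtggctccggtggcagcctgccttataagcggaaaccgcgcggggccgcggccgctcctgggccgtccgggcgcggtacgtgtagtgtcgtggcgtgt

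The libraries held 19596 barcodes and 109428807 UMIs (unique molecular identifiers, each counting 1 captured transcript) in AAV-TAU and 20265 barcodes and 130252240 UMIs in AAV-STOP. After filtering, 17799 AAV-TAU nuclei (median 4947 UMIs) and 17939 AAV-STOP nuclei (median 5542 UMIs) remained, and 116 barcode sequences were present in both libraries. Clustering without the 28 genes gave 45 clusters, of which 27 were named from markers as 18 classes. No name was given to 20.3% of AAV-TAU and 19.0% of AAV-STOP nuclei. Some unnamed clusters were uneven between the libraries. Among them, single clusters held 458 AAV-TAU and 29 AAV-STOP nuclei, 109 and 0, or 218 and 521. Classes are called like a cell type because they rest on markers alone. In none of the 14 classes compared was a marker of its own list at 0, but counts summed over a class make this a weak check. In granule-like nuclei no marker of any list was at 0. In CA2-like nuclei the CA2 markers summed to 266 CPM in AAV-TAU and 303 CPM in AAV-STOP, below the CA3 markers at 2756 CPM in AAV-TAU and 2571 CPM in AAV-STOP. Neuronal RNA was present in the non-neuronal classes: Rbfox3, a neuronal nuclear marker, stood at 66.5 CPM in AAV-TAU and 45.9 CPM in AAV-STOP astrocyte-like nuclei, against 547 and 572 CPM in granule-like neurons. Mitochondrial genes took a median of 0.282% of the UMIs of a nucleus in AAV-TAU and 0.174% in AAV-STOP. The part of free RNA and of mitochondrial share in the differences below was not tested. Levels are given as CPM, UMIs of a gene per 1000000 UMIs of the class, and the 95% intervals are exact, cover counting error only and say nothing of the spread between mice. UMIs were not scaled to gene length, so levels are compared here between classes and libraries and not between genes.

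Summed, the 18 synthesis enzymes were highest in astrocyte-like, newly formed oligodendrocyte-like and oligodendrocyte-like nuclei and lowest in mature hippocampal neurons, in both libraries. Their summed level was 867 CPM (825 to 910) in AAV-TAU and 719 CPM (675 to 767) in AAV-STOP astrocyte-like nuclei. Newly formed oligodendrocyte-like nuclei stood at 788 CPM (717 to 864) in AAV-TAU and 805 CPM (739 to 875) in AAV-STOP. Oligodendrocyte-like nuclei stood at 720 CPM (697 to 742) in AAV-TAU and 678 CPM (655 to 701) in AAV-STOP. These 3 classes held the top places in both libraries, with the order of the first 2 exchanged, and the intervals of neighbours overlapped in part. At the other end, dentate granule-like neurons stood at 276 CPM (269 to 283) in AAV-TAU and 236 CPM (230.5 to 242) in AAV-STOP. CA1-like neurons stood at 284 CPM (275 to 293) in AAV-TAU and 235 CPM (228 to 242) in AAV-STOP, so granule-like and CA1-like neurons could not be ordered. CA3-like, CA2-like, inhibitory neuron-like and subicular or cortical-like neurons lay between 287 and 334 CPM in AAV-TAU and between 266 and 311 CPM in AAV-STOP.

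**Figure D1:**
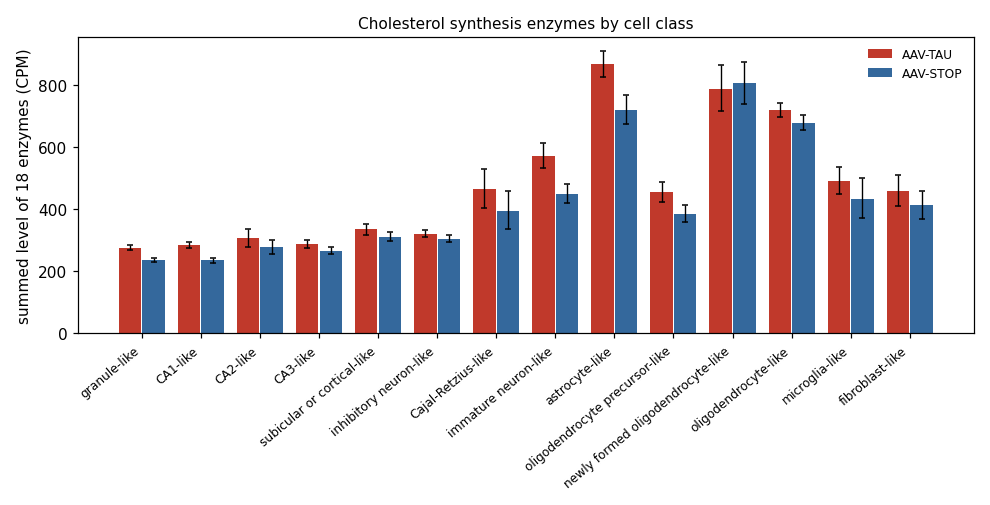
Summed level of the 18 cholesterol synthesis enzymes (CPM, linear axis from 0) in each of the 14 classes, with AAV-TAU left of AAV-STOP and bars showing the exact 95% Poisson interval of 1 library. The astrocyte-like bars stand at 867 CPM in AAV-TAU and 719 CPM in AAV-STOP, and the granule-like bars at 276 CPM in AAV-TAU and 236 CPM in AAV-STOP.

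Immature neuron-like nuclei were the neurons with the highest summed level, at 571 CPM (532 to 612) in AAV-TAU and 449 CPM (418 to 481) in AAV-STOP. Against granule-like neurons, 9 of 17 measured enzymes were higher in immature neuron-like nuclei with the counting intervals of both libraries above 1, and 0 were lower. Over all genes 25.9% were higher and 9.97% lower in this sense. With a mitochondrial share of at most 0.2% the count of enzymes higher was 4, and the share of all genes was not computed at that cap. The ratios of immature over granule-like neurons were 3.23 in AAV-TAU and 3.26 in AAV-STOP for Fdft1 (squalene synthase), and 3.21 in AAV-TAU and 3.33 in AAV-STOP for Sqle (squalene epoxidase). Acat2, which makes acetoacetyl-CoA, had ratios of 2.48 in AAV-TAU and 2.18 in AAV-STOP. Microglia-like, Cajal-Retzius-like, fibroblast-like and oligodendrocyte precursor-like nuclei formed the middle of the order, between 454 and 491 CPM in AAV-TAU and between 385 and 432 CPM in AAV-STOP.

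Single enzymes followed the sum: 16 of 18 had their highest class among astrocyte-like, newly formed oligodendrocyte-like and oligodendrocyte-like nuclei in both libraries. The same share over all genes was not computed. The highest class was taken without a UMI minimum and rests on few UMIs for low genes. Mvk, for instance, was highest in newly formed oligodendrocyte-like nuclei, at 17.4 CPM in AAV-TAU and 17.7 CPM in AAV-STOP. Against granule-like neurons, 13 of 18 enzymes were higher in astrocyte-like nuclei with both intervals above 1, where 24.9% of all genes were. The count was 17 of 18 for oligodendrocyte-like nuclei, where 33.2% of all genes were higher. No enzyme was lower than in granule-like neurons in both libraries, where 19.0% of all genes were lower in astrocyte-like and 29.8% in oligodendrocyte-like nuclei. With nuclei limited to 2000 UMIs each, or to a mitochondrial share of at most 0.2%, the astrocyte count was 8. The limit of 2000 UMIs, here and below, also left out nuclei with fewer. In the astrocyte-like class these were 100 AAV-TAU and 5 AAV-STOP nuclei. In the oligodendrocyte-like class they were 448 AAV-TAU and 32 AAV-STOP nuclei, and in the microglia-like class 320 AAV-TAU and 18 AAV-STOP nuclei. Granule-like neurons lost 25 AAV-TAU and 6 AAV-STOP nuclei, and CA3-like neurons lost 0 in both. The shares of all genes under these limits were not computed.

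The late enzymes Msmo1 and Nsdhl, which remove methyl groups from the sterol ring, stood out in astrocyte-like nuclei. Msmo1 (ENSMUSG00000031604, chromosome 8, 64718139 to 64733792 in mm10) was at 185 CPM in AAV-TAU and 148 CPM in AAV-STOP astrocyte-like nuclei, and at 24.0 CPM in AAV-TAU and 19.2 CPM in AAV-STOP granule-like neurons. The astrocyte over granule ratio was 7.72 (6.73 to 8.84) in AAV-TAU and 7.71 (6.52 to 9.08) in AAV-STOP. Nsdhl (ENSMUSG00000031349, chromosome X, 72918557 to 72958514) was at 119 CPM in AAV-TAU and 88.0 CPM in AAV-STOP astrocyte-like nuclei, with ratios over granule-like neurons of 7.70 (6.49 to 9.13) in AAV-TAU and 5.83 (4.71 to 7.16) in AAV-STOP. They were the 2 of 17 measured enzymes that were also higher in astrocyte-like than in oligodendrocyte-like nuclei with both intervals above 1, as 19.1% of all genes were. In oligodendrocyte-like nuclei Msmo1 was at 91.1 CPM in AAV-TAU and 88.7 CPM in AAV-STOP. Cyp51, the lanosterol demethylase, was lower in that comparison, as 16.5% of all genes were, at 77.1 CPM in AAV-TAU and 91.7 CPM in AAV-STOP astrocyte-like nuclei, against 108 CPM in AAV-TAU and 115 CPM in AAV-STOP oligodendrocyte-like nuclei.

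Ebp and Sqle had a leading class other than astrocyte-like, newly formed oligodendrocyte-like or oligodendrocyte-like nuclei in either library. Sqle was highest in immature neuron-like nuclei in AAV-TAU, at 55.7 CPM. In AAV-STOP it was highest in newly formed oligodendrocyte-like nuclei, at 50.1 CPM. Ebp, the sterol isomerase, was highest in microglia-like nuclei, at 26.9 CPM in AAV-TAU and 30.5 CPM in AAV-STOP, from few UMIs. Acat2 was highest in newly formed oligodendrocyte-like nuclei, at 39.9 CPM in AAV-TAU and 53.1 CPM in AAV-STOP. Sc5d, a late desaturase, varied less by class than most enzymes, with its lowest level at 25.4 CPM in AAV-TAU (subicular or cortical-like) and 27.1 CPM in AAV-STOP (CA1-like) and its highest, in oligodendrocyte-like nuclei, at 59.6 CPM in AAV-TAU and 58.8 CPM in AAV-STOP. Its oligodendrocyte over granule ratio was 1.74 (1.53 to 1.99) in AAV-TAU and 1.75 (1.53 to 2.00) in AAV-STOP. Mvd, the mevalonate diphosphate decarboxylase, and Stard4, a cytosolic sterol carrier, did not reach 100 UMIs over both libraries in any class. Mvd had 0 UMIs in Cajal-Retzius-like nuclei, which with 3 UMIs as the limit allows up to 6.49 CPM in AAV-TAU and 7.09 CPM in AAV-STOP.

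**Figure D2:**
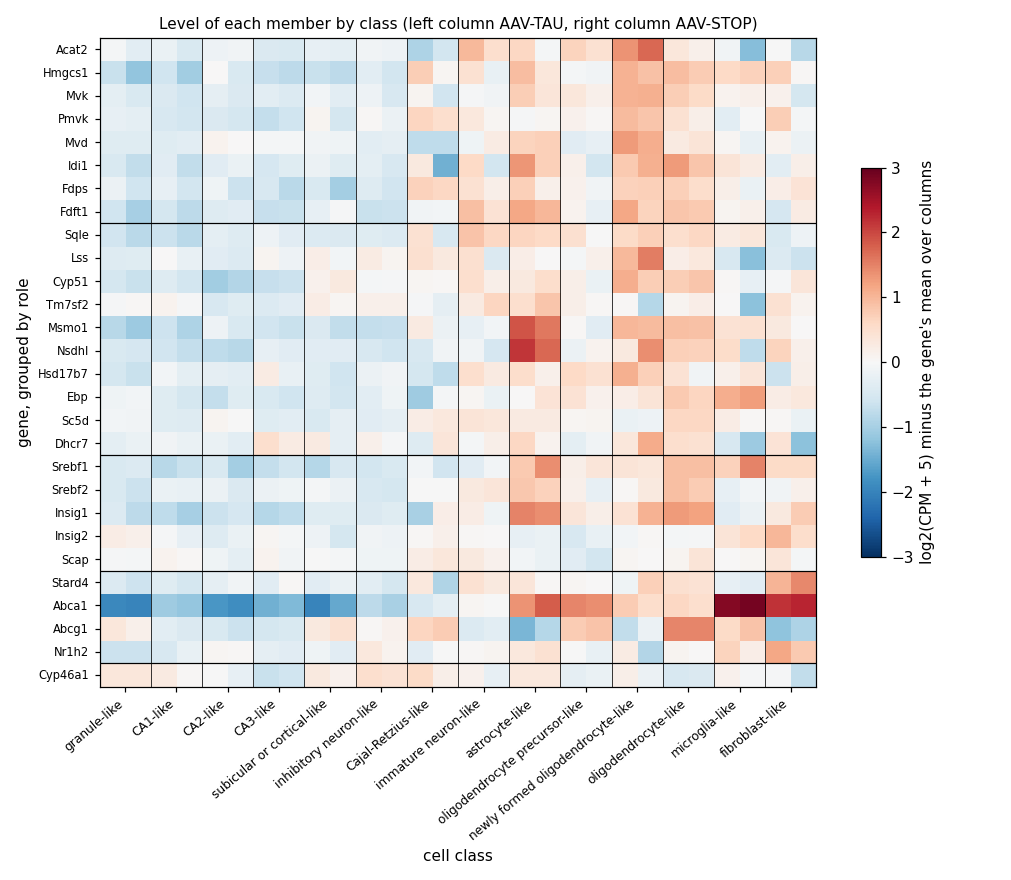
Level of each of the 28 genes (rows, grouped by role) in each class (paired columns, AAV-TAU left and AAV-STOP right), as log2(CPM + 5) minus the mean of the gene over all columns, red above and blue below that mean. Most enzyme rows are red in the astrocyte-like, newly formed oligodendrocyte-like and oligodendrocyte-like columns. Exceptions include Tm7sf2 in newly formed oligodendrocyte-like nuclei. The columns of a pair resemble each other except in classes with few UMIs.

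Within the oligodendrocyte lineage the enzymes were higher after the precursor stage. The cluster of precursor-like nuclei stood at 454 CPM in AAV-TAU and 385 CPM in AAV-STOP for the summed enzymes, against 788 and 805 CPM in newly formed oligodendrocyte-like nuclei. The oligodendrocyte-like class held 2 clusters: a smaller one, marked by 9630013A20Rik, at 797 CPM in AAV-TAU and 774 CPM in AAV-STOP, and the larger at 704 CPM in AAV-TAU and 651 CPM in AAV-STOP. Oligodendrocyte-like over precursor-like nuclei, 9 of 17 enzymes were higher with both intervals above 1, where 16.1% of all genes were. The count was 4 with a mitochondrial share of at most 0.2%, and the share of all genes was not computed at that cap. The 9 were Hmgcs1, Idi1, Fdps, Fdft1, Cyp51, Msmo1, Nsdhl, Sc5d and Dhcr7. The regulators Srebf1, Srebf2, Insig1 and Scap were higher too. Abca1 was lower, as 22.1% of all genes were.

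The exporters differed in their leading classes. Abca1 (ENSMUSG00000015243, chromosome 4, 53030787 to 53159895), which loads cholesterol onto apolipoprotein, was highest in microglia-like nuclei, at 384 CPM in AAV-TAU and 420 CPM in AAV-STOP. Fibroblast-like nuclei had 255 CPM in AAV-TAU and 278 CPM in AAV-STOP, and granule-like neurons 10.2 CPM in AAV-TAU and 9.76 CPM in AAV-STOP. Abcg1 (ENSMUSG00000024030, chromosome 17, 31057675 to 31117988), which passes cholesterol to existing particles, was highest in oligodendrocyte-like nuclei, at 107 CPM in AAV-TAU and 106 CPM in AAV-STOP. In astrocyte-like nuclei it was at 10.6 CPM in AAV-TAU and 17.3 CPM in AAV-STOP, below granule-like neurons at 45.9 CPM in AAV-TAU and 39.8 CPM in AAV-STOP, with ratios of 0.230 (0.140 to 0.357) in AAV-TAU and 0.435 (0.274 to 0.655) in AAV-STOP. Abca1 was above granule-like neurons in the same astrocyte-like nuclei, by a ratio of 14.1 (11.8 to 16.9) in AAV-TAU and 20.6 (17.3 to 24.4) in AAV-STOP.

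The exporters also varied between the lineage clusters. Abca1 was at 155 CPM in AAV-TAU and 147 CPM in AAV-STOP in precursor-like nuclei, at 93.7 CPM in AAV-TAU and 78.1 CPM in AAV-STOP in newly formed oligodendrocyte-like nuclei, at 36.7 CPM in AAV-TAU and 36.8 CPM in AAV-STOP in the smaller oligodendrocyte-like cluster, and at 93.2 CPM in AAV-TAU and 89.2 CPM in AAV-STOP in the larger. Abcg1 was at 63.1 CPM in AAV-TAU and 67.6 CPM in AAV-STOP in precursor-like nuclei, at 19.1 CPM in AAV-TAU and 31.0 CPM in AAV-STOP in newly formed oligodendrocyte-like nuclei, at 51.7 CPM in AAV-TAU and 40.6 CPM in AAV-STOP in the smaller oligodendrocyte-like cluster, and at 118 CPM in AAV-TAU and 125 CPM in AAV-STOP in the larger. Both exporters stood higher in the larger than in the smaller oligodendrocyte-like cluster, in both libraries.

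Cyp46a1 (ENSMUSG00000021259, chromosome 12, 108334381 to 108362234) was counted in neuronal and non-neuronal classes. It was at 37.6 CPM in AAV-TAU and 37.4 CPM in AAV-STOP granule-like neurons, and at 36.9 CPM in AAV-TAU and 36.8 CPM in AAV-STOP astrocyte-like nuclei, a ratio between the classes of 0.983 in AAV-TAU and 0.984 in AAV-STOP. Neuronal genes were also present in those astrocyte-like nuclei, where Rbfox3 stood at 66.5 CPM in AAV-TAU and 45.9 CPM in AAV-STOP, against 547 CPM in AAV-TAU and 572 CPM in AAV-STOP granule-like neurons. Snap25, a synaptic gene, stood at 265 CPM in AAV-TAU and 171 CPM in AAV-STOP astrocyte-like nuclei, against 747 CPM in AAV-TAU and 715 CPM in AAV-STOP granule-like neurons, and the part of neuronal RNA in the Cyp46a1 level was not tested. Oligodendrocyte-like nuclei had less Cyp46a1, at 19.14 CPM in AAV-TAU and 20.03 CPM in AAV-STOP, with Rbfox3 at 54.8 CPM in AAV-TAU and 37.3 CPM in AAV-STOP. CA3-like neurons were low among neurons for Cyp46a1, at 16.2 CPM in AAV-TAU and 17.4 CPM in AAV-STOP.

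**Figure D3:**
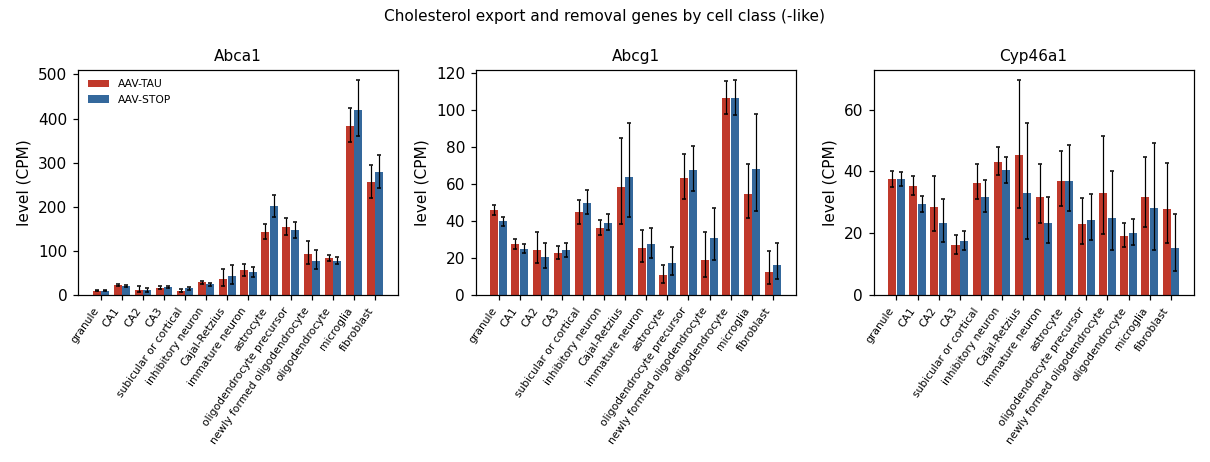
Level (CPM, linear axes from 0, a scale of its own per panel) of Abca1, Abcg1 and Cyp46a1 in the 14 classes, AAV-TAU left of AAV-STOP, with exact 95% Poisson intervals of 1 library each. Abca1 peaks in microglia-like nuclei at 384 CPM in AAV-TAU and 420 CPM in AAV-STOP, Abcg1 peaks in oligodendrocyte-like nuclei, and Cyp46a1 is about as high in astrocyte-like nuclei as in granule-like neurons.

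Among the sensing genes, Insig1 (ENSMUSG00000045294, chromosome 5, 28071363 to 28078662), itself a target of SREBP2, followed the enzymes. It was at 70.2 CPM in AAV-TAU and 65.4 CPM in AAV-STOP astrocyte-like nuclei, and at 15.2 CPM in AAV-TAU and 10.5 CPM in AAV-STOP granule-like neurons, a ratio of 4.63 in AAV-TAU and 6.20 in AAV-STOP. Insig2, which SREBP2 does not induce, did not: its astrocyte over granule ratio was 0.702 in AAV-TAU and 0.762 in AAV-STOP. Srebf2 was highest in oligodendrocyte-like nuclei, at 102 CPM in AAV-TAU and 91.6 CPM in AAV-STOP. Scap had a narrow range, with all 14 classes between 28.9 and 49.9 CPM in AAV-TAU and between 24.4 and 50.9 CPM in AAV-STOP. It was not even: oligodendrocyte-like over precursor-like nuclei its ratio was 1.39 (1.02 to 1.94) in AAV-TAU and 2.09 (1.52 to 2.94) in AAV-STOP.

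The comparison of AAV-TAU with AAV-STOP asked whether the genes stand at another level in a hippocampus that makes non-mutated human tau. The summed enzymes were higher in AAV-TAU in 13 of 14 classes, with the counting interval above 1 in 7. Over all genes the median of ratios was shifted upward in AAV-TAU in 12 of the 14 classes. With that shift taken out the sum was still higher in 13 and its interval was above 1 in 5. That shift is over genes of every length. With 5 CPM added to both levels, genes of 5 to 20 kb, the length of most members, had larger medians. Their median log2 ratios were 0.15 in precursor-like, 0.14 in astrocyte-like and 0.11 in immature neuron-like nuclei. Over all genes these were 0.02, 0.03 and 0.02. In granule-like and CA1-like neurons they were 0.10 and 0.09, against 0.06 in both over all genes. The sum was not rescaled by length class. The ratio under total scaling was 1.27 (1.15 to 1.41) in immature neuron-like nuclei, 1.21 (1.16 to 1.26) in CA1-like neurons, 1.205 (1.11 to 1.31) in astrocyte-like nuclei, 1.18 (1.06 to 1.31) in precursor-like nuclei and 1.17 (1.13 to 1.21) in granule-like neurons. CA3-like neurons (1.08, 1.01 to 1.15) and oligodendrocyte-like nuclei (1.06, 1.01 to 1.11) lay just above 1. These were the 2 whose intervals held 1 with the shift taken out, at 1.03 (0.969 to 1.100) in CA3-like neurons and 1.02 (0.973 to 1.07) in oligodendrocyte-like nuclei. In inhibitory neuron-like nuclei the ratio was 1.06 with an interval that reached 1.00, and it was 1.12, 1.03 and 0.953 in the 3 clusters of that class. Newly formed oligodendrocyte-like nuclei were the exception to the direction, at 0.979 (0.863 to 1.11). Across clusters the granule-like ratio was 1.17 in both, and the CA1-like ratio was 1.14 and 1.25.

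Calls below are a ratio of 1.2 or more after 5 CPM was added to both levels, and log2 ratios are on that scale, which shrinks low genes. They are made among genes with 100 or more UMIs over both libraries in the class. Over all 187 pairs of a measured member and a class, 35 were past the fold upward in AAV-TAU and 5 downward, where 13.8% and 5.28% of all pairs of a measured gene and one of these classes were. Of the 117 pairs that were enzymes, 31 were upward and 1 downward.

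In granule-like neurons 26 members were measured, and 5 were past the fold upward, where 7.88% of all 12957 measured genes were; none was past it downward, where 0.309% were. The differences lay mainly among the early enzymes: all 7 measured early enzymes were higher in AAV-TAU and 4 were past the fold, while 6 of 10 late enzymes were higher and none was past it, where 71.0% of all genes were higher. With a pseudocount of 1 CPM the count of members past the fold was 9, and the share of all genes was not computed at that setting. Hmgcs1 (ENSMUSG00000093930, chromosome 13, 119690379 to 119708260), which makes HMG-CoA, was at 26.5 CPM (24.4 to 28.7) in AAV-TAU and 17.1 CPM (15.6 to 18.7) in AAV-STOP, a log2 ratio of 0.51. Fdps (ENSMUSG00000059743, chromosome 3, 89093588 to 89101959), the farnesyl diphosphate synthase, was at 16.9 CPM in AAV-TAU and 11.4 CPM in AAV-STOP (0.42). Fdft1 (ENSMUSG00000021273, chromosome 14, 63145150 to 63179578) was at 21.8 CPM in AAV-TAU and 15.3 CPM in AAV-STOP (0.40). Idi1 (ENSMUSG00000058258, chromosome 13, 8885501 to 8892451), an isoprenoid isomerase, was at 9.63 CPM in AAV-TAU and 6.94 CPM in AAV-STOP (0.29). Insig1 was the other gene past the fold, with a log2 ratio of 0.38. At the low end stood Dhcr7, the last reductase, at 11.7 CPM in AAV-TAU and 12.9 CPM in AAV-STOP, and Tm7sf2, a sterol reductase, at 6.39 CPM in AAV-TAU and 6.97 CPM in AAV-STOP, with intervals of both ratios that held 1. Cyp46a1 and Abca1 had log2 ratios of 0.00 and 0.04. The astrocyte markers summed in these granule-like nuclei to 1215 CPM in AAV-TAU and 1221 CPM in AAV-STOP, and the oligodendrocyte markers to 455 CPM in AAV-TAU and 410 CPM in AAV-STOP, with no marker at 0. The astrocyte list holds Slc4a4, which is also among the 10 leading genes of the larger granule-like cluster, so its sum is not astrocyte RNA alone. Slc1a3 of that list stood at 56.3 CPM in AAV-TAU and 60.2 CPM in AAV-STOP. The part of RNA from other cell types in the enzyme difference was not tested.

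In CA1-like neurons all 16 measured enzymes were higher in AAV-TAU. Their median log2 ratio was 0.19, against 0.06 over all genes, of which 69.4% were higher. Of 25 members measured, 5 were past the fold upward, where 8.80% of all genes were, and 1 downward, where 0.533% were. Hmgcs1 was at 27.9 CPM in AAV-TAU and 19.0 CPM in AAV-STOP, a log2 ratio of 0.45. Idi1 was at 10.7 CPM in AAV-TAU and 6.93 CPM in AAV-STOP (0.40), Fdps at 15.9 CPM in AAV-TAU and 11.9 CPM in AAV-STOP (0.30), and Msmo1 at 28.3 CPM in AAV-TAU and 22.1 CPM in AAV-STOP (0.30). Fdft1 had a log2 ratio of 0.26. The gene past the fold downward was Nr1h2, at 5.39 CPM in AAV-TAU and 7.52 CPM in AAV-STOP (ratio 0.717, 0.533 to 0.957), from 77 and 128 UMIs, and with nuclei limited to 2000 UMIs each its log2 ratio was 0.01. With genes scaled by the median of ratios the count past the fold upward was 2. At a finer clustering it was 3, and with a pseudocount of 1 CPM it was 9. The shares of all genes at these settings were not computed. The astrocyte markers summed in CA1-like neurons to 180 CPM in AAV-TAU and 160 CPM in AAV-STOP, the oligodendrocyte markers to 320 CPM in AAV-TAU and 309 CPM in AAV-STOP, and the inhibitory neuron markers to 124 CPM in AAV-TAU and 92.2 CPM in AAV-STOP, with no marker at 0. Their part in the enzyme difference was not tested.

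Gene length moved with the ratios. Genes of 5 to 20 kb, the class of most members, had median log2 ratios of 0.10 in granule-like neurons and 0.09 in CA1-like neurons, and genes under 5 kb had 0.14 and 0.16. Other classes had larger shares past the fold upward among genes of 5 to 20 kb. These were 35.4% in precursor-like, 34.7% in astrocyte-like and 27.5% in immature neuron-like nuclei, where 18.0%, 20.5% and 15.3% of all genes were. Against the median of all genes of their own length class, 20 of 25 members and 14 of 16 enzymes were above in CA1-like neurons. In granule-like neurons 15 of 26 members and 10 of 17 enzymes were above. In CA3-like neurons 9 of 20 members were above, in inhibitory neuron-like nuclei 12 of 24 and in oligodendrocyte-like nuclei 12 of 25. In precursor-like nuclei 6 of 10 members were above, in immature neuron-like nuclei 6 of 10 and in subicular or cortical-like neurons 7 of 17. The part of length in the enzyme differences was not tested further.

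**Figure D4:**
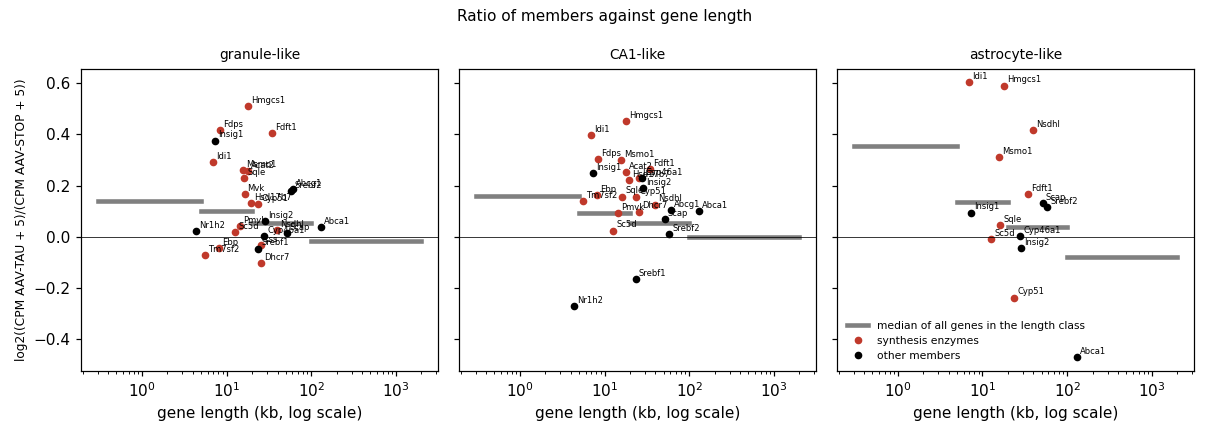
Log2 ratio (AAV-TAU over AAV-STOP, with 5 CPM added to each) of the measured members against gene length (kb, log axis) in granule-like, CA1-like and astrocyte-like nuclei. Red points are synthesis enzymes, black points other members, and grey bars the median of all genes in each of 4 length classes; Hmgcs1 stands above the bar of its length class in all 3 panels, and Abca1 lies below it in astrocyte-like nuclei.

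In CA3-like neurons 20 members were measured and 2 were past the fold upward, where 10.9% of all genes were. They were Hsd17b7, a ketosteroid reductase, at 14.7 CPM in AAV-TAU and 9.13 CPM in AAV-STOP, and Fdps, at 12.8 CPM in AAV-TAU and 9.13 CPM in AAV-STOP. Both log2 ratios turned negative with nuclei limited to 2000 UMIs each. In inhibitory neuron-like nuclei none of 24 members was past the fold in either direction, where 10.7% of all genes were past it upward and 1.45% downward. The upward count was 3 with a pseudocount of 1 CPM, 4 with nuclei limited to 2000 UMIs each and 1 under 5 other settings. The shares of all genes under those settings were not computed. Hmgcs1 came nearest, at 34.8 CPM in AAV-TAU and 28.8 CPM in AAV-STOP (ratio 1.21, 1.02 to 1.44). In immature neuron-like nuclei 3 of 10 members were past the fold upward, where 15.3% of all genes were. Hmgcs1 was at 63.5 CPM in AAV-TAU and 37.8 CPM in AAV-STOP (log2 ratio 0.68, its highest in any class), Fdft1 at 70.6 CPM in AAV-TAU and 49.8 CPM in AAV-STOP, and Cyp51 at 91.0 CPM in AAV-TAU and 71.5 CPM in AAV-STOP. In subicular or cortical-like neurons 4 of 17 members were past the fold upward, where 16.5% of all genes were. Among them Dhcr7 had a log2 ratio of 0.55, from 87 UMIs in AAV-TAU and 57 UMIs in AAV-STOP, while the calls of Msmo1, Insig2 and Lss changed sign under 1 or 2 other settings. In CA2-like neurons Hmgcs1 and Msmo1 were past the fold upward among 7 measured, where 14.3% of all genes were.

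In astrocyte-like nuclei 6 of 8 measured enzymes were higher in AAV-TAU, where 54.2% of all genes were, and Abca1 was lower. Of 14 members measured, 4 were past the fold upward, where 20.5% of all genes were, and 1 downward, where 11.8% were, and 7 of the 14 lay above the median of their length class. The 4 were the enzymes Idi1 (44.9 CPM in AAV-TAU and 27.8 CPM in AAV-STOP), Hmgcs1 (89.7 CPM in AAV-TAU and 57.9 CPM in AAV-STOP), Nsdhl (119 CPM in AAV-TAU and 88.0 CPM in AAV-STOP) and Msmo1 (185 CPM in AAV-TAU and 148 CPM in AAV-STOP). Their ratios were 1.61 (1.08 to 2.44), 1.55 (1.18 to 2.06), 1.36 (1.08 to 1.71) and 1.25 (1.05 to 1.50). Cyp51 did not share the direction, at a ratio of 0.840 (0.656 to 1.08), nor did Sc5d, at 0.995. Abca1 was past the fold downward, at 144 CPM (127 to 162) in AAV-TAU and 201 CPM (177 to 226) in AAV-STOP, a ratio of 0.715 (0.602 to 0.850). Abca1 was the only member over 100 kb, and 19.7% of all measured genes of that length were past the fold downward in this class. Abcg1 and Srebf1 did not reach 100 UMIs here and were not called. The class held 701 AAV-TAU and 460 AAV-STOP nuclei in a single cluster. Granule markers summed there to 808 CPM in AAV-TAU and 1004 CPM in AAV-STOP and inhibitory neuron markers to 475 CPM in AAV-TAU and 501 CPM in AAV-STOP, while Snap25 stood at 265 CPM in AAV-TAU and 171 CPM in AAV-STOP. The part of neuronal RNA was not tested.

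**Figure D5:**
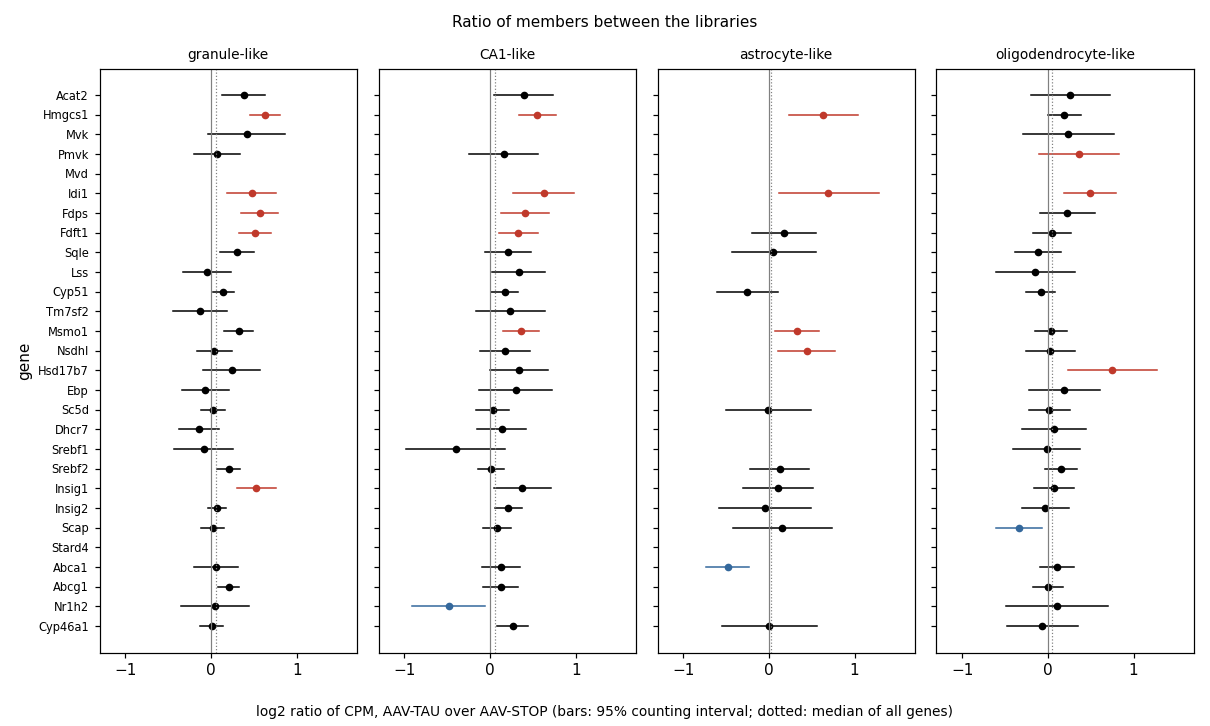
Ratio of CPM (AAV-TAU over AAV-STOP, log2 axis, exact 95% counting interval) of each measured member in granule-like, CA1-like, astrocyte-like and oligodendrocyte-like nuclei, with genes past 1.2-fold on the scale with 5 CPM added in red (higher) or blue (lower) and the median of all genes as a dotted line. Hmgcs1 lies right of 0 in all 4 panels, and Abca1 lies left of 0 in the astrocyte-like panel only among the 4.

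In oligodendrocyte-like nuclei 25 members were measured, and 3 were past the fold upward, where 18.9% of all genes were, a share above that of the members. They were Hsd17b7, at 17.5 CPM in AAV-TAU and 10.4 CPM in AAV-STOP, Idi1, at 43.4 CPM in AAV-TAU and 30.9 CPM in AAV-STOP, and Pmvk, a mevalonate pathway kinase, at 18.2 CPM in AAV-TAU and 14.2 CPM in AAV-STOP. Scap was past it downward, where 5.16% of all genes were, at 40.3 CPM in AAV-TAU and 50.9 CPM in AAV-STOP (ratio 0.792, 0.657 to 0.954). Abca1 and Abcg1 had log2 ratios of 0.10 and 0.00. In precursor-like nuclei 5 of 10 members were past the fold upward, where 18.0% of all genes were. They were Sqle (41.9 CPM in AAV-TAU and 28.1 CPM in AAV-STOP), Srebf2 (59.0 CPM in AAV-TAU and 43.3 CPM in AAV-STOP), Cyp51 (71.4 CPM in AAV-TAU and 53.6 CPM in AAV-STOP), Msmo1 and Fdft1, and Hmgcs1 was not among them (43.1 CPM in AAV-TAU and 41.7 CPM in AAV-STOP).

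Of the other non-neuronal classes, microglia-like nuclei had 2 members measured, from 517 AAV-TAU and 173 AAV-STOP nuclei. Hmgcs1 was at 70.3 CPM in AAV-TAU and 75.1 CPM in AAV-STOP, and Abca1 at 384 CPM in AAV-TAU and 420 CPM in AAV-STOP (ratio 0.914, 0.764 to 1.10). Neither was past the fold, where 21.2% of all genes were past it upward and 17.3% downward. In fibroblast-like nuclei Insig2 was past the fold upward, where 19.4% of all genes were, at 97.1 CPM in AAV-TAU and 69.1 CPM in AAV-STOP, and Cyp51 downward, where 20.2% were, at 61.0 CPM in AAV-TAU and 81.7 CPM in AAV-STOP. In this class the border macrophage markers summed to 80.4 CPM in AAV-TAU and 8.80 CPM in AAV-STOP (0 and 2 of 6 at 0), the choroid plexus markers to 473 CPM in AAV-TAU and 187 CPM in AAV-STOP (0 and 1 of 6 at 0), and the astrocyte markers to 3105 CPM in AAV-TAU and 2489 CPM in AAV-STOP (none at 0). Their part in these calls was not tested. In newly formed oligodendrocyte-like nuclei Cyp51 was past the fold upward among 4 measured, where 16.9% of all genes were, at 139 CPM in AAV-TAU and 108 CPM in AAV-STOP (ratio 1.29, 0.928 to 1.80). Cajal-Retzius-like nuclei had no member with 100 UMIs. Across classes, Hmgcs1 was past the fold upward in 5 of the 12 classes where it was measured, and higher in AAV-TAU in 11. Abca1 was past it downward in 2 of 12, the second being subicular or cortical-like neurons (9.61 CPM in AAV-TAU and 14.9 CPM in AAV-STOP). In that class 3.08% of all genes and 5.40% of genes over 100 kb were past the fold downward. Whether the ratios differ between classes was not tested.

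Neighbouring lipid genes were read from a fatty acid synthesis list of 11 genes, several of them SREBP1 targets, and a list of 22 sterol carriers and storage genes. In astrocyte-like nuclei 3 of 9 measured fatty acid genes were higher in AAV-TAU, where 54.2% of all genes were, with none past the fold upward, where 20.5% of all genes were, and 1 downward, where 11.8% were. It was Elovl5, an elongase (61.2 CPM in AAV-TAU and 93.2 CPM in AAV-STOP). Fads2, a desaturase, was at 197 CPM in AAV-TAU and 236 CPM in AAV-STOP, and Acaca, the acetyl-CoA carboxylase, at 193 CPM in AAV-TAU and 230 CPM in AAV-STOP. Of 16 carriers in these nuclei 2 were past the fold upward, a smaller share than the 20.5% of all genes, among them Osbp, a sterol exchanger (42.8 CPM in AAV-TAU and 22.6 CPM in AAV-STOP). A further 5 were past it downward, against 11.8% of all genes, among them Npc1, which exports cholesterol from lysosomes (64.9 CPM in AAV-TAU and 86.5 CPM in AAV-STOP), and Osbpl8. In granule-like neurons 9 of 10 fatty acid genes were higher, where 71.0% of all genes were, with a median log2 ratio of 0.11 against 0.06 over all genes. Fasn, the fatty acid synthase, was past the fold upward, where 7.88% of all genes were, at 9.85 CPM in AAV-TAU and 7.24 CPM in AAV-STOP. Among 19 carriers 15 were higher, a share near that of all genes, and Osbpl1a was past the fold (60.0 CPM in AAV-TAU and 47.3 CPM in AAV-STOP). In oligodendrocyte-like nuclei 3 of 10 fatty acid genes were past the fold upward, where 18.9% of all genes were, among them Scd2, a desaturase of myelin lipids (455 CPM in AAV-TAU and 376 CPM in AAV-STOP). Of 17 carriers 2 were, a share below that of all genes, Stard5 (13.4 CPM in AAV-TAU and 7.09 CPM in AAV-STOP) and Osbpl2 (48.4 CPM in AAV-TAU and 37.8 CPM in AAV-STOP).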

How the data were processed

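Single-nucleus RNA libraries, 1 per group, were analysed from the deposited matrices, which hold whole-number counts of UMIs per gene and barcode made by the authors. Per the submitters' processing notes the tools were Cell Ranger 4.0 and Seurat 4.4.0 on mm10, while the matrix headers name Cell Ranger 8.0.1. The notes do not say how intronic reads were handled. Barcodes needed 500 UMIs, 300 genes and at most 5% mitochondrial UMIs, which removed 2 AAV-TAU and 4 AAV-STOP barcodes. The barcodes kept held at least 1633 UMIs in AAV-TAU and 1973 UMIs in AAV-STOP. The floor thus lay above 500 UMIs and was lower in AAV-TAU, so nuclei with little RNA entered mostly from AAV-TAU. The part of this floor in the differences between libraries was not tested on its own. Doublets were marked by simulated doublet scores in each library (1795 in AAV-TAU, 2322 in AAV-STOP) and left out.

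Both libraries were clustered together (3000 variable genes without the 28 members, 30 principal components, 15 neighbours, Leiden at resolution 1, leidenalg 0.10.2, scipy 1.17.1, numpy 2.4.6, Python 3.11.15). A cluster was named where its markers averaged a log2 level of 1.6 or more over the median of clusters, led the next list by 0.6, had 3 or more members raised over 2-fold at 10 CPM, and its 10 leading genes held 1 or more of its own markers and no more of another list. Glial or vascular clusters with Rbfox3 over 40% of the neuronal median stayed unnamed. These thresholds were set after seeing the data, and a difference from the study's own cell types may come from the rebuilt names. Classes with 100 or more nuclei in both libraries were compared. Counts were summed per class and library and scaled by the class total. With 1 library per group no p-value or standard error was computed. Class against class, a gene was called higher where the exact interval of its ratio lay above 1 in both libraries. Depth set the precision: 3 UMIs, the limit that a count of 0 allows, equal 0.133 CPM in AAV-TAU granule-like neurons and 7.04 CPM in AAV-STOP microglia-like nuclei. The calculation was tested on simulated data. All 28 members are described, those with the largest range over classes or the largest ratio in full, and of the other lists up to 3 genes per class with the largest absolute log2 ratio. The members and lists were chosen with earlier results of these data known. The alternatives tried changed the pseudocount, the count minimum, the scaling, the weight and depth of nuclei, doublets and clustering. A cap on mitochondrial share, and all alternatives for class against class counts, were added after seeing the data. A further form of the vector mentioned in the series text was not analysed here, nor were genes outside the lists described one by one.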

Additional observations from a re-analysis of the deposited data

How the results depend on the processing

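With 1 library per group, the spread between mice is unknown and the 3 mice of a pool cannot be separated. No paired analysis was possible because each group has 1 library. Of 285 recomputed summary values, 262 stayed within their counting interval, order-statistic interval or 1.5 times their count. The ratio of summed enzymes kept its direction in every class under all alternatives that gave a value. For the members past the fold, 7 of 431 recomputed ratios changed sign. The cause of each change below was not tested. Shares of all genes under the alternatives were not computed, so a change in the count of members and a change in all genes cannot be told apart.

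Scaling by the median of ratios, which shifts log2 ratios by at most 0.08 in a class, gave 0.20 for the CA1-like enzyme sum (0.28 as reported), 0.14 for the granule-like sum (0.22), and in CA1-like neurons a member median of 0.10 (0.16) and 2 members past the fold (5). A pseudocount of 1 CPM gave 9 members past the fold in CA1-like and 9 in granule-like neurons (5 each), 4 in CA3-like neurons (2) and 3 in nuclei of the inhibitory class (0). The inhibitory class had 1 with 20 UMIs as the minimum, 1 with every gene with a UMI, 1 with equal weight per nucleus, 1 with doublets kept, 1 with at most 0.2% mitochondrial UMIs and 4 with nuclei thinned to 2000 UMIs, and its median ranged from -0.02 to 0.10. Equal weight gave 4 in CA3-like neurons, and resolution 2 gave 3 in CA1-like neurons. With at most 0.2% mitochondrial UMIs, 1 member was past the fold in oligodendrocyte-like nuclei (3). That cap left 8 enzymes higher in astrocyte-like than granule-like nuclei (13), 4 in immature neuron-like nuclei (9) and 4 in oligodendrocyte-like over precursor-like nuclei (9), and thinning left 8 in astrocyte-like nuclei. Thinning also gave a CA3-like median of 0.26 (0.06) and a precursor-like enzyme sum of 0.42 (0.24).

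Changes of sign were 0.0060 for Nr1h2 in CA1-like, -0.13 for Fdps and -0.11 for Hsd17b7 in CA3-like neurons, all with thinning. In subicular or cortical-like neurons they were -0.0408 for Msmo1 and -0.0862 for Insig2 at resolution 0.5, and for Lss -0.0775 with the members kept in the clustering and -0.0745 with the mitochondrial cap.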

Other observations

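Classes with fewer than 100 nuclei in a library were too small to compare, and their values follow without a reading. The summed enzymes were at 393 CPM (311 to 490.0) in AAV-TAU and 447 CPM (330.5 to 591) in AAV-STOP border macrophage-like nuclei, and at 547 CPM in AAV-TAU and 535 CPM in AAV-STOP choroid plexus-like nuclei. Cycling-like nuclei had 538 CPM in AAV-TAU and 496 CPM in AAV-STOP, and mossy cell-like neurons 265 CPM in AAV-TAU and 258 CPM in AAV-STOP. Abca1 in border macrophage-like nuclei was at 587 CPM (486 to 703) in AAV-TAU, from 68 nuclei, and at 337 CPM (238 to 465) in AAV-STOP, from 35 nuclei. Microglia-like nuclei, the class nearest in type, had 384 CPM in AAV-TAU and 420 CPM in AAV-STOP.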
